A study of Iris tectorum with 6 samples.

Results

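The enzymes that build and degrade starch were followed in leaves of Iris tectorum, a rhizomatous garden iris. Members were all unigenes (assembled transcripts) whose best protein description held the words starch, amylase, isoamylase, glucose-1-phosphate adenylyl, alpha-glucan, 4-alpha-glucanotransferase, glucan water dikinase or phosphoglucan. The words matched 133 of 111791 unigenes, in 69 assembly clusters. By words in their descriptions, 45 were put on the synthesis side and 85 on the breakdown side. The other 3, described as glucoamylase or starch phosphorylase, matched the words of no class and were left in neither side.

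Co-culture plants shared their swine wastewater with Dictyosphaerium sp., a colonial green microalga, and plant alone plants grew in swine wastewater without it. Both groups thus stood in wastewater, with a mean water depth of 12.3 cm and an error of 0.8 cm over 18 values (its kind is not given), and clean water was not part of the design. The labels give 3 leaf samples per group, without plant age, exposure time, time of day or whether plants were pooled. Files of 5 libraries were analysed, co-culture 1, 2 and 3 and plant alone 2 and 3, while plant alone 1 was not analysed here.

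Leaf starch is laid down in the chloroplast by day and degraded at night. ADP-glucose pyrophosphorylase makes the glucose donor, starch synthases lengthen the chains, branching enzymes add branch points, and isoamylases of the synthesis side trim misplaced branches so that granules can form. Breakdown starts with dikinases that phosphorylate the granule surface, and phosphatases, amylases, a debranching isoamylase, glucanotransferases and phosphorylase then release maltose, glucose and glucose phosphate for export or respiration.

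Libraries held 20968769 to 22975621 expected counts in co-culture and 18616931 to 18881996 in plant alone. The biological coefficient of variation was 0.773. In all, 69984 unigenes passed the filter on low counts and were tested with edgeR's quasi-likelihood test, and 118 of the 133 members were among them, 41 of 45 for synthesis, 74 of 85 for breakdown and all 3 others. The labels do not say whether the samples of a group were separate cultures. The p-values thus measure only how far these samples spread, which may be technical. Leaf markers were present in every library but uneven. The chlorophyll a-b binding proteins, with reads for 59 to 62 of 64 unigenes in co-culture and 54 to 58 in plant alone, summed to 18489, 24575 and 2968 TMM-scaled FPKM in co-culture 1, 2 and 3 and to 7194 and 4846 in plant alone 2 and 3. TMM-scaled FPKM is an FPKM value with the effective library size from TMM scaling in place of the library total. The Rubisco small subunit (9 unigenes) ranged over 276 to 5871 in co-culture and 730 to 1898 in plant alone, and Rubisco activase (10 unigenes) over 467 to 8434 in co-culture and 641 to 1255 in plant alone. None of the 3 lists was at 0 in any library, and co-culture 3 was the lowest for each. Unigenes with a green algal hit (393) held 0.2002 to 0.2325% of counts in co-culture and 0.281 to 0.356% in plant alone.

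Transcripts for starch synthesis stood higher on average in co-culture leaves, while those for breakdown were split. Of the 41 synthesis unigenes tested, 30 (73.2%) had a higher fitted level in co-culture and 11 a lower one, with a median log2 fold change of 0.89. Of the 74 breakdown unigenes, 38 (51.4%) were higher and 36 lower, with a median of 0.05. The counts of higher unigenes include 1 of synthesis and 5 of breakdown that had no whole read in plant alone and passed the filter only through co-culture. Setting these at their lower bounds leaves the medians as they are, because each bound lies above the median. Over all 69984 unigenes tested, 50.1% were higher and the median was 0.00. Without plant alone 2 the medians were 1.28 for synthesis and 0.44 for breakdown, where all unigenes had 0.18, and without plant alone 3 they were 0.60 and 0.18, where all unigenes had 0.13. The counts are of unigenes, and reads can be shared among contigs of a cluster. The leaf markers were also mostly higher in co-culture, with 54 of 61 chlorophyll a-b binding unigenes (88.5%, median 1.14), 7 of 8 for the Rubisco small subunit (87.5%, median 1.25) and 8 of 9 for Rubisco activase (88.9%, median 1.46). The part of the leaf markers in the synthesis values was not tested.

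Member by member, no difference passed edgeR's test. Of the 118 members, edgeR called 0 at adjusted p 0.05 (smallest adjusted p = 0.628), as it did over all unigenes (0.0%). At unadjusted edgeR p under 0.05 there were 7 members, all higher in co-culture, 4 of synthesis and 3 of breakdown. That is 9.76% of synthesis and 4.05% of breakdown unigenes, where 2.75% of all unigenes were higher and 4.45% lower at that level. The 1 synthesis and 5 breakdown unigenes without a whole read in plant alone could only come out higher here. Without co-culture 3 there were 13, of which 5 breakdown unigenes were lower. DESeq2 called 3 of 124 members, all higher, where it called 1.25% of all unigenes higher and 0.954% lower. Among these 3, CL13540.Contig1_zju and CL8468.Contig1_zju had no whole read in plant alone, so they could only come out higher. On simulated data with the spread of these libraries, 5% of the unigenes given a 4-fold change and 53% of those given a 16-fold change passed edgeR's adjusted p of 0.05. The changed unigenes were drawn from those with a mean above 5 CPM, and some members lie under that level.

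The ranges of the groups separated for some members of both sides. Every co-culture library lay above both plant alone libraries for 13 of 41 synthesis unigenes (31.7%) and 10 of 74 breakdown unigenes (13.5%), against 12.8% of all unigenes. Every co-culture library lay below for 1 synthesis unigene (2.44%) and 4 breakdown unigenes (5.41%), against 17.2% of all unigenes. The breakdown share above was thus near that of all unigenes. The shares above include unigenes with no whole read in plant alone, such as CL8468.Contig1_zju and CL13540.Contig1_zju. These passed the filter only through co-culture and could not lie below. Taken singly, co-culture 1, 2 and 3 exceeded the plant alone mean for 29, 32 and 25 of the 41 synthesis unigenes and for 38, 41 and 28 of the 74 breakdown unigenes. Among all unigenes those shares were 48.3%, 46.1% and 44.6%.

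The authors' deposited table, which gives 1 pooled count per group and whose plant alone count includes reads not analysed here, is not independent of these libraries. It called 18 synthesis unigenes higher and 1 lower of 45, and 17 breakdown unigenes higher and 6 lower of 85, where it called 16.3% of all unigenes higher and 13.6% lower. It also called all 3 unassigned unigenes lower.

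**Figure D1:**
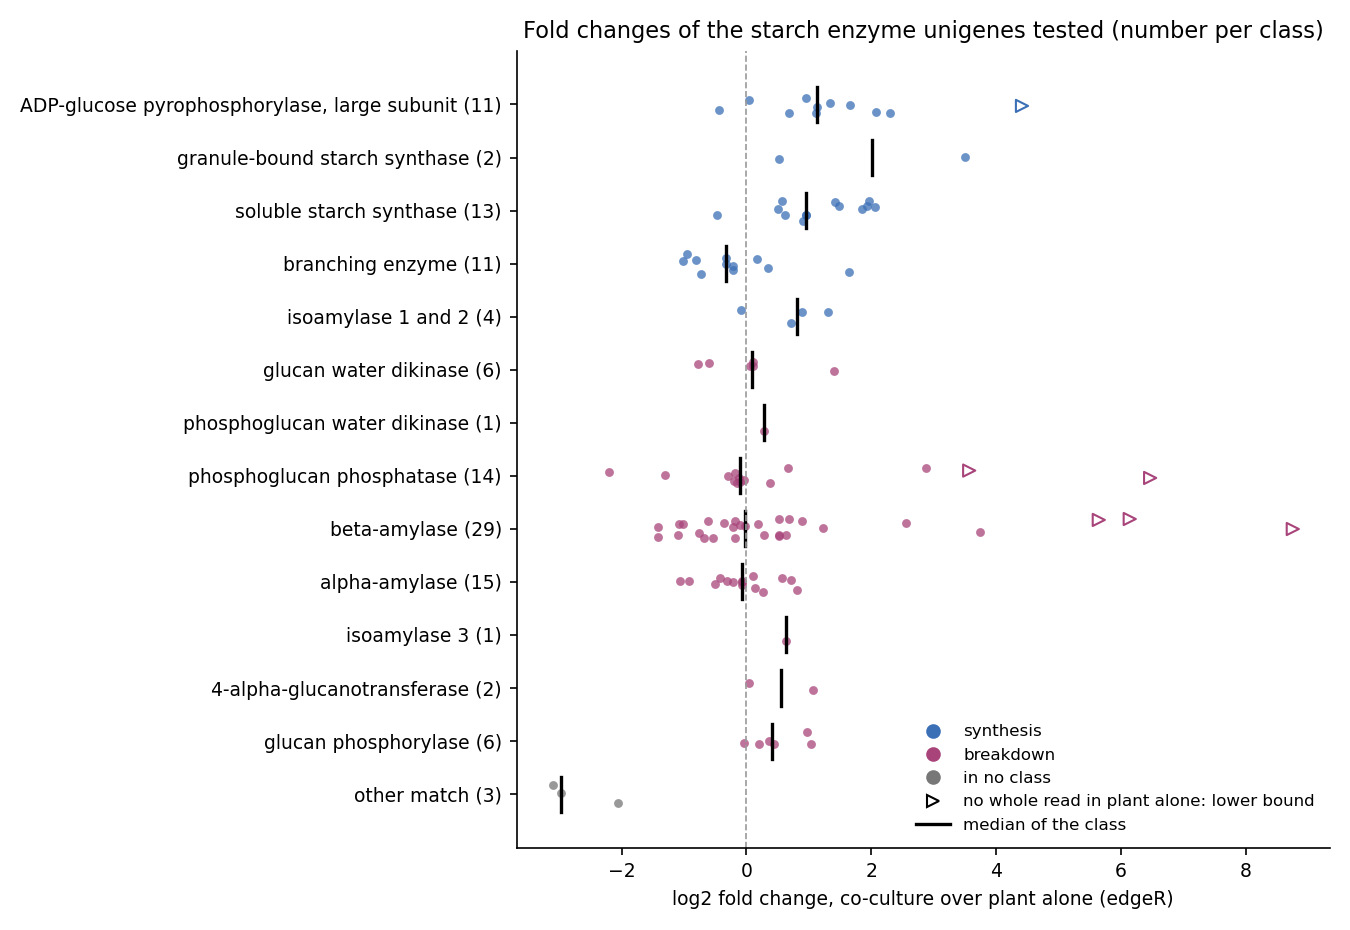
Each point is 1 of the 118 members tested, placed by its edgeR log2 fold change (x axis, co-culture over plant alone) in the row of its enzyme class. Triangles are lower bounds for the unigenes without a whole read in plant alone, and bars are class medians. Most soluble starch synthase and ADP-glucose pyrophosphorylase points lie right of 0, whereas branching enzymes and both amylase classes lie on both sides.

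Large subunits of ADP-glucose pyrophosphorylase, the regulatory part of the enzyme that makes ADP-glucose, were higher on average in co-culture. Their 13 unigenes summed to 20.5, 49.4 and 36.8 TMM-scaled FPKM in co-culture 1, 2 and 3, against 21.0 and 10.2 in plant alone 2 and 3. Co-culture 2 and 3 were above both plant alone libraries, and co-culture 1 lay between them. The log2 ratio of the means was 1.19 (35.6 ± 14.5 in co-culture, SD, n = 3, and 15.6 ± 7.69 in plant alone, SD, n = 2), and it was 1.80 without plant alone 2, 0.94 without co-culture 2 and 0.78 without plant alone 3. Of 11 unigenes tested, 10 were higher, with a median log2 fold change of 1.13, which was 2.31 without plant alone 2.

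The most abundant large subunit, CL11806.Contig3_zju (large subunit 2), had 4.42, 12.8 and 9.93 TMM-scaled FPKM in co-culture leaves, against 4.88 and 2.29 in plant alone leaves. Its groups overlapped, since co-culture 1 lay under plant alone 2. Its log2 fold change was 1.34 ± 0.63 (SE, edgeR adjusted p = 0.628). The next, Unigene17827_zju (large subunit 3), had 7.10, 9.99 and 0.668 in co-culture and 6.16 and 1.24 in plant alone. The lowest of these 5 values was in co-culture 3, and its log2 fold change of 0.68 ± 1.24 (SE) became -0.05 without plant alone 3.

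CL8468.Contig1_zju, annotated as large subunit 1-like, was called by DESeq2 (adjusted p = 0.0276, edgeR adjusted p = 0.628). It had 0.624, 3.35 and 0.324 TMM-scaled FPKM in co-culture, compared with 0.0192 and 0 in plant alone. Plant alone held under 1 expected count of it, so no fold is given. Its cluster of 2 contigs summed to 1.38, 10.8 and 3.88 CPM in co-culture and 1.83 and 0.426 in plant alone. The cluster ranges overlapped, with a log2 fold change of 2.29 ± 1.13 (SE, edgeR adjusted p = 0.55).

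The catalytic small subunit was represented by a single short member, Unigene53329_zju, with 0.909, 0.433 and 2.42 TMM-scaled FPKM in co-culture and 0.915 and 0.502 in plant alone, too low to be tested. Another 6 unigenes carried the KEGG term of this enzyme under other descriptions and lay outside the member words. Among these, 3 contigs described as AGPS1 summed to 28.8, 34.3 and 9.13 in co-culture leaves, against 19.2 and 5.95 in plant alone leaves. Co-culture 3 lay between the plant alone libraries, and neither edgeR nor DESeq2 called any of the 5 of these unigenes that were tested.

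Soluble starch synthases, which extend the chains of amylopectin, were the class with the most separated members. Their 13 unigenes summed to 49.5, 85.02 and 39.6 TMM-scaled FPKM in co-culture and 42.0 and 26.5 in plant alone, a log2 ratio of 0.76. Co-culture 3 lay just under plant alone 2, so the sums overlapped, and the ratio was 0.41 without co-culture 2, 1.12 without plant alone 2 and 0.49 when plant alone 3 was left out. Of the 13, 12 were higher, 7 had every co-culture library above plant alone, and the median log2 fold change was 0.96.

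Starch synthase 3, which makes long chains, separated between the groups. Its 6 unigenes summed to 8.22, 16.9 and 13.9 TMM-scaled FPKM in co-culture, compared with 5.36 and 5.73 in plant alone, a log2 ratio of 1.23. All 3 co-culture sums were above both plant alone sums, and the fitted level of all 6 unigenes was higher, between 0.90 and 2.06 on the log2 scale. CL8681.Contig5_zju had 1.37, 2.10 and 2.36 in co-culture leaves, against 0.407 and 0.591 in plant alone leaves, a log2 fold change of 1.97 ± 0.59 (SE, edgeR adjusted p = 0.628). The most abundant contig, CL8681.Contig3_zju, had 3.56, 8.49 and 6.31 in co-culture and 2.55 and 3.74 in plant alone, and its groups overlapped narrowly. Summed over its 5 contigs, cluster CL8681_zju had 24.8, 55.4 and 42.0 CPM in co-culture, compared with 17.9 and 18.7 in plant alone. Its ranges did not overlap, with a log2 fold change of 1.16 ± 0.40 (SE, edgeR adjusted p = 0.519).

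Starch synthase 2-2, which makes chains of middle length, held the synthase called by DESeq2. CL865.Contig1_zju had 5.33, 4.28 and 2.78 TMM-scaled FPKM in co-culture leaves, against 1.02 and 1.25 in plant alone leaves. Every co-culture library was above both plant alone libraries, with a log2 fold change of 1.86 ± 0.46 (SE, edgeR adjusted p = 0.628, DESeq2 adjusted p = 0.0359). Leaving out any 1 library gave between 1.65 and 2.08. Its cluster of 5 contigs, 1 of them described as granule-bound starch synthase 2, also separated, with 37.0, 25.1 and 19.6 CPM in co-culture and 17.2 and 11.8 in plant alone. DESeq2 did not call the cluster (adjusted p = 0.373, log2 fold change 0.92 in edgeR).

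Starch synthase 1, which adds short chains, was the soluble synthase unigene with the highest mean level. Unigene3921_zju had 14.7, 37.4 and 10.4 TMM-scaled FPKM in co-culture, compared with 18.2 and 9.01 in plant alone. The groups overlapped, and its log2 fold change of 0.61 ± 0.68 (SE) became -0.08 without co-culture 2, the library that held the highest value. Starch synthase 4, linked to granule initiation in Arabidopsis, had 4.35, 10.4 and 2.10 in co-culture and 3.74 and 2.03 in plant alone, also highest in co-culture 2 and lowest in plant alone 3.

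Granule-bound starch synthase makes amylose. Unigene19878_zju (form 1b) had 25.3, 16.8 and 6.67 TMM-scaled FPKM in co-culture leaves, against 18.1 and 4.61 in plant alone leaves. Each group held a high and a low library, and the log2 fold change of 0.52 ± 0.80 (SE) became -0.14 without plant alone 3. The other member, CL865.Contig2_zju, had 2.49, 0.513 and 0.490 in co-culture leaves, against 0 and 0.215 in plant alone leaves, a log2 fold change of 3.51 ± 1.67 (SE, edgeR adjusted p = 0.628).

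**Figure D2:**
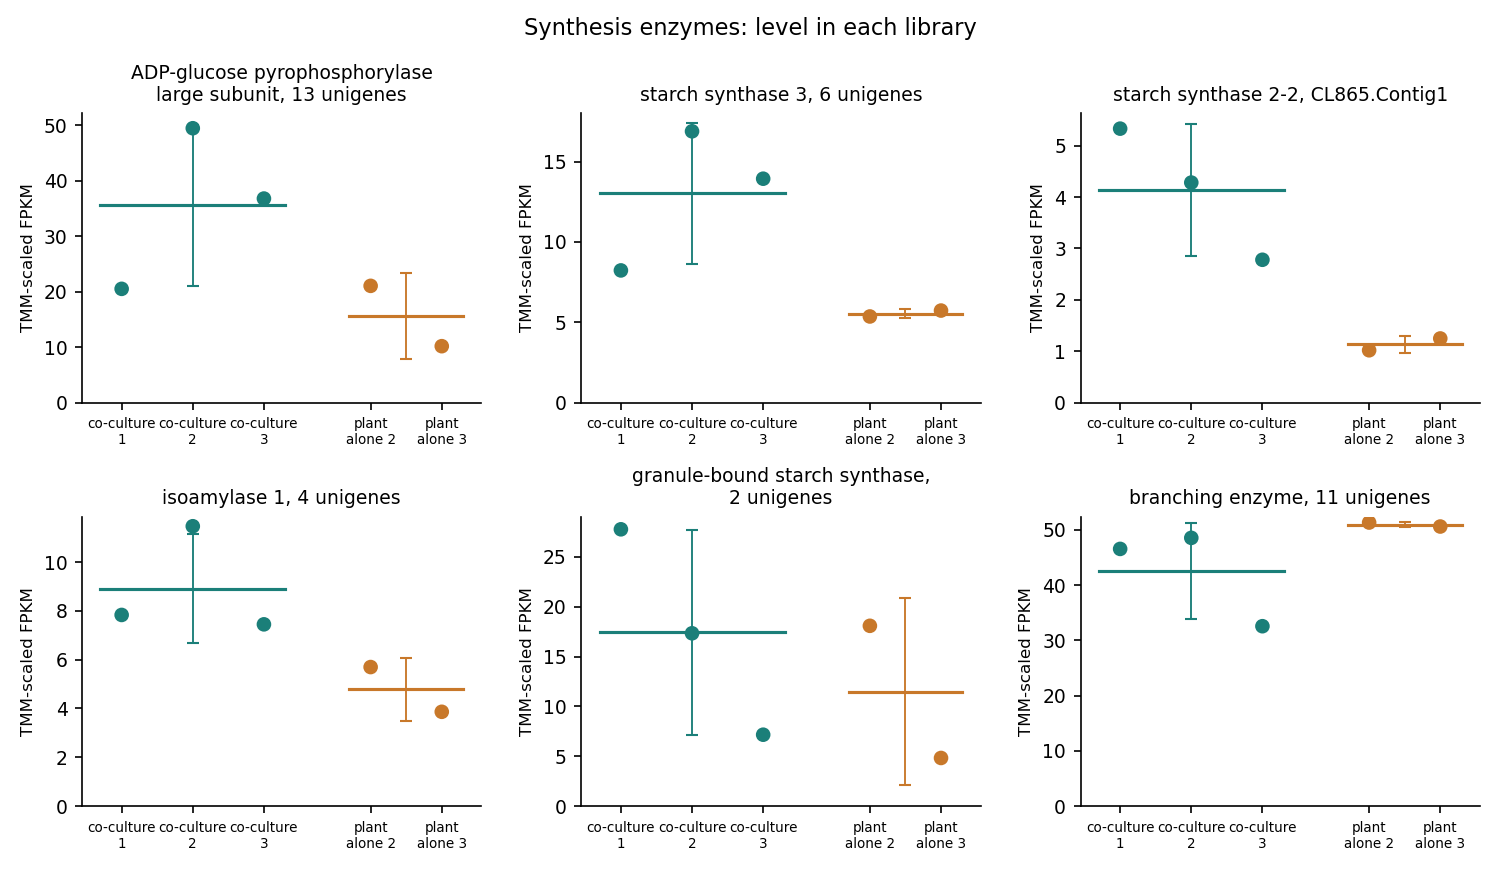
Level of 6 synthesis enzymes (y axes, TMM-scaled FPKM, summed over unigenes where several are named) in each library, with co-culture in green and plant alone in orange. Lines are group means and whiskers SD (n = 3 and n = 2). For starch synthase 3, isoamylase 1 and the starch synthase 2-2 contig all co-culture points lie above both plant alone points, whereas all co-culture points lie below for branching enzyme.

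Branching enzymes, which cut a chain and rejoin it as a branch, had lower sums in co-culture. Their 11 unigenes summed to 46.5, 48.5 and 32.6 TMM-scaled FPKM in co-culture and 51.3 and 50.6 in plant alone, so that every co-culture sum was lower. The log2 ratio was -0.26, and -0.10 without co-culture 3. Only 3 of 11 were higher, with a median log2 fold change of -0.32. Branching enzyme made up 29.9%, 22.6% and 25.4% of the synthesis sum in co-culture, compared with 36.3% and 50.9% in plant alone.

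The leading contig, CL12094.Contig2_zju, had 17.3, 15.2 and 9.72 TMM-scaled FPKM in co-culture, compared with 14.9 and 20.4 in plant alone (log2 fold change -0.32 ± 0.36, SE). Here co-culture 3 was the lowest library, and the fold change was -0.11 without it and -0.06 without plant alone 3. Unigene34256_zju (branching enzyme 1) had 2.52, 2.96 and 2.66 in co-culture libraries and 7.32 and 3.62 in plant alone libraries, the 1 synthesis unigene that was lower in every co-culture library. Its log2 fold change was -1.01 ± 0.46 (SE, edgeR adjusted p = 0.628), and -0.42 without plant alone 2. CL3276.Contig2_zju (branching enzyme 2-2) had 5.12, 14.6 and 8.26 in co-culture and 5.78 and 10.9 in plant alone and overlapped (0.16 ± 0.56, SE), turning without co-culture 2 (-0.28) or plant alone 2 (-0.23). A contig of branching enzyme 3, CL9796.Contig1_zju, went the other way, with 3.33, 1.34 and 2.37 in co-culture leaves, against 0.863 and 0.630 in plant alone leaves (log2 fold change 1.64 ± 0.61, SE, edgeR adjusted p = 0.628). Its 2 cluster mates were lower, and the cluster sum was level at 0.05 on the log2 scale. That contig was chosen after its values were seen.

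Isoamylase 1, the debranching enzyme that acts during granule formation, also separated. Its 4 contigs summed to 7.83, 11.5 and 7.45 TMM-scaled FPKM in co-culture leaves, against 5.70 and 3.86 in plant alone leaves, a log2 ratio of 0.90. All 3 co-culture sums were above both plant alone sums. Most of it came from CL8331.Contig1_zju, with 5.94, 10.6 and 4.93 in co-culture libraries and 4.21 and 3.49 in plant alone libraries (log2 fold change 0.89 ± 0.45, SE, edgeR adjusted p = 0.635, and 0.53 without co-culture 2). Isoamylase 2, its non-catalytic partner, had 2.47, 2.77 and 2.25 in co-culture and 2.39 and 2.94 in plant alone. Those ranges overlapped, with a log2 fold change of -0.09 ± 0.35 (SE) that was 0.09 without plant alone 3.

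On the breakdown side, the dikinases that open the granule surface showed no common direction. The 6 glucan water dikinase unigenes summed to 64.4, 66.6 and 24.1 TMM-scaled FPKM in co-culture, compared with 77.7 and 40.2 in plant alone, with co-culture 3 the lowest. The long contig CL437.Contig1_zju had 29.6, 27.1 and 8.88 in co-culture and 26.4 and 15.5 in plant alone (log2 fold change 0.06 ± 0.60, SE). Its direction turned without co-culture 1 (-0.20), co-culture 2 (-0.11) or plant alone 3 (-0.26). Unigene16211_zju, a fragment, had 16.4, 21.2 and 8.21 in co-culture leaves, against 37.0 and 15.2 in plant alone leaves (-0.78 ± 0.59, SE). That difference rested on plant alone 2, without which it was -0.00197. CL437.Contig4_zju had 3.25, 4.34 and 2.48 in co-culture libraries and 1.42 and 1.13 in plant alone libraries. It was above plant alone in every co-culture library, at 1.40 ± 0.48 (SE, edgeR adjusted p = 0.628), while its cluster of 4 contigs was at 0.12.

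Phosphoglucan water dikinase, which acts after the first dikinase, varied little between libraries. CL7769.Contig1_zju had 21.3, 25.1 and 23.0 TMM-scaled FPKM in co-culture leaves, against 20.9 and 17.1 in plant alone leaves. All co-culture values were higher, by 0.29 ± 0.27 on the log2 scale (SE, edgeR adjusted p = 0.795). The other contig, CL7769.Contig2_zju, had reads only in plant alone 3, at 0.322.

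Phosphoglucan phosphatases strip the phosphate so that amylases can proceed. Of their 14 unigenes tested, 5 were higher and 9 lower, with a median log2 fold change of -0.11, which was 0.62 without plant alone 2 and positive without co-culture 1 (0.13) or co-culture 3 (0.07). The most abundant, Unigene37185_zju (DSP4, the name used for the enzyme SEX4), had 35.0, 44.5 and 20.0 TMM-scaled FPKM in co-culture and 31.3 and 19.6 in plant alone (0.38 ± 0.45, SE, and 0.10 without plant alone 3). LSF1, a catalytically inactive relative, was led by CL5414.Contig2_zju, with 9.86, 10.7 and 8.86 in co-culture and 12.7 and 9.62 in plant alone (-0.19 ± 0.28, SE). Its direction turned without plant alone 2 (0.02). The 9 LSF2 unigenes summed to 20.7, 29.7 and 26.2 in co-culture leaves, against 29.8 and 18.9 in plant alone leaves, although a contig of them, CL3694.Contig6_zju, had 1.85, 6.15 and 11.9 in co-culture libraries and 0.403 and 1.40 in plant alone libraries (edgeR adjusted p = 0.628). The cluster of that contig was at 0.04, and the contig was chosen after its values were seen.

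Beta-amylases, which release maltose from chain ends, made up 78.8%, 72.4% and 58.6% of the breakdown sum in co-culture and 62.4% and 83.3% in plant alone. Most of this lay in 7 unigenes described only as beta-amylase. They summed to 915, 734 and 258 TMM-scaled FPKM in co-culture, compared with 356 and 1254 in plant alone. The highest and the second lowest of these 5 values were the plant alone libraries, so each group spanned most of the range. CL1609.Contig2_zju had 429, 302 and 131 in co-culture leaves, against 127 and 614 in plant alone leaves (log2 fold change -0.37 ± 0.83, SE). Unigene5843_zju had 314, 180.1 and 68.9 in co-culture and 165 and 436 in plant alone (-0.68 ± 0.75, SE). Both turned without plant alone 3, to 1.19 and 0.20.

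Beta-amylases with a number in their description were less abundant. Beta-amylase 1, a plastid enzyme, summed over 5 unigenes to 79.8, 54.6 and 26.4 TMM-scaled FPKM in co-culture and 39.6 and 30.7 in plant alone. Co-culture 3 was the lowest, and the log2 ratio was 0.61. Its contig CL13540.Contig1_zju was called by DESeq2 (adjusted p = 0.00135, edgeR adjusted p = 0.628). It had 0.849, 5.98 and 1.32 in co-culture and no reads in plant alone, at least 50.2-fold higher against a floor of 3 counts over the group. Its cluster of 3 contigs had 125, 79.6 and 37.3 CPM in co-culture, compared with 55.9 and 43.6 in plant alone. The cluster ranges overlapped, with a log2 fold change of 0.71 ± 0.53 (SE, edgeR adjusted p = 0.675).

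Beta-amylase 3, the main maltose-forming enzyme of Arabidopsis leaves at night, summed over 8 unigenes to 57.0, 131 and 49.7 TMM-scaled FPKM in co-culture leaves, against 71.6 and 44.8 in plant alone leaves. Co-culture 2 alone was above both plant alone libraries. Inactive beta-amylase 9, a non-catalytic protein in Arabidopsis, summed to 117, 124 and 126 in co-culture leaves, against 115 and 205 in plant alone leaves. Beta-amylase 8, a nuclear regulator in Arabidopsis rather than a starch-degrading enzyme, summed over 11 unigenes to 12.5, 7.25 and 11.3 in co-culture libraries and 13.98 and 12.9 in plant alone libraries. Every co-culture sum of beta-amylase 8 was below both plant alone sums, although all 7 of its unigenes that were tested overlapped.

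Single contigs of these clusters could be high in 1 library while the cluster was not, and the following were chosen after their values were seen. CL1609.Contig4_zju, described only as beta-amylase, had 2.38, 94.3 and 3.54 TMM-scaled FPKM in co-culture and 2.62 and 2.35 in plant alone, so that co-culture 2 alone stood apart. CL7347.Contig1_zju, of inactive beta-amylase 9, had 0, 2.92 and 49.4 in co-culture against 0 in both plant alone libraries, while its cluster mate had 117, 121 and 76.5 in co-culture and 115 and 205 in plant alone. Their cluster sum, at 216.5, 230.2 and 235 CPM in co-culture, compared with 212 and 381 in plant alone, was even across co-culture.

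**Figure D3:**
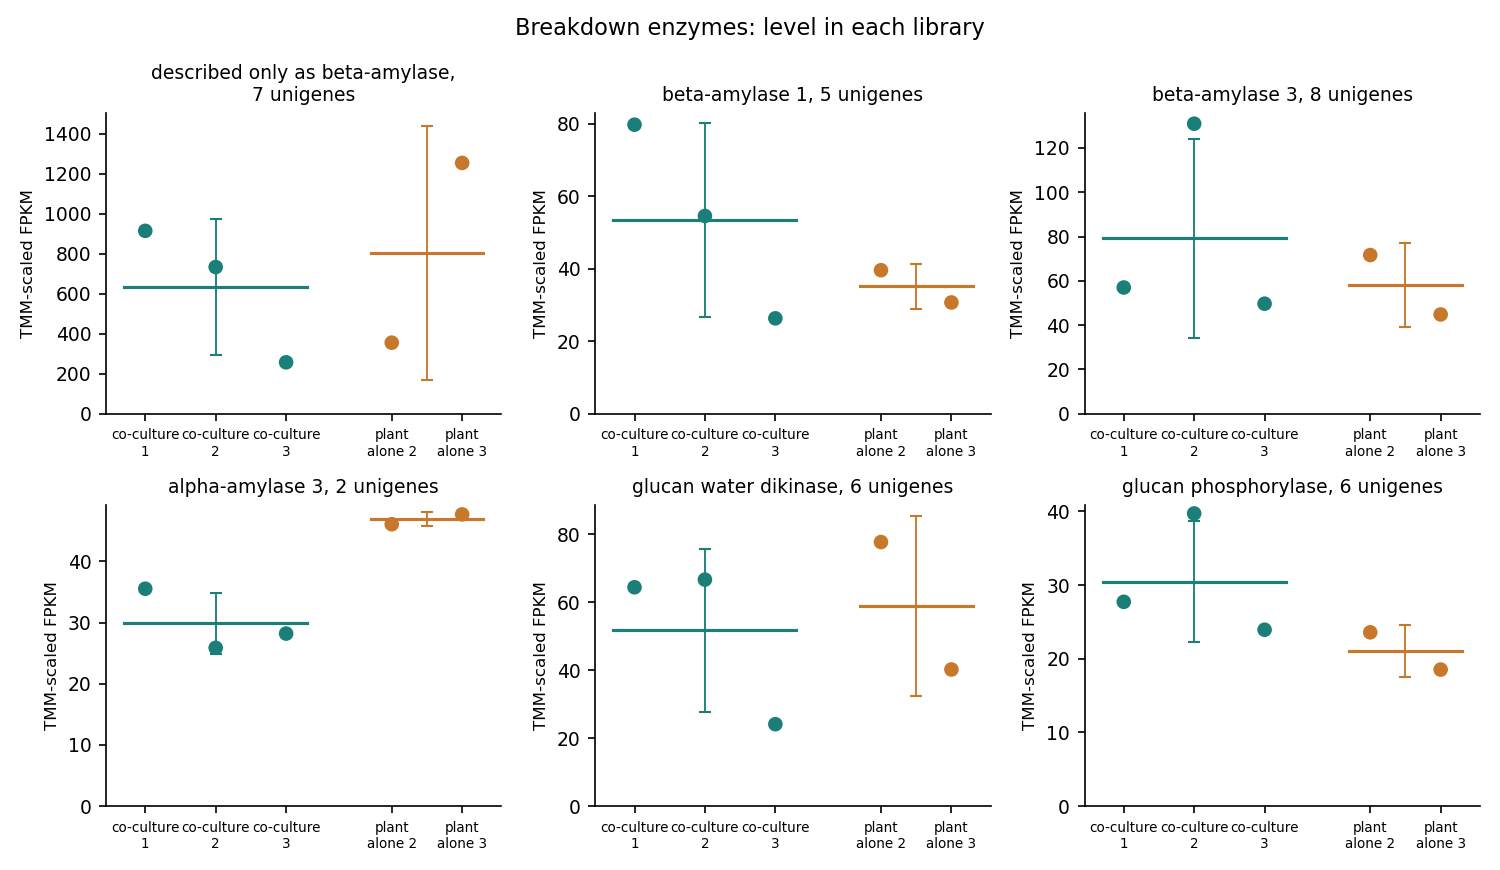
Level of 6 groups of breakdown unigenes (y axes, summed TMM-scaled FPKM) in each library, with co-culture in green and plant alone in orange. Lines are group means and whiskers SD (n = 3 and n = 2). The 7 unigenes described only as beta-amylase are highest in plant alone 3 and lowest in co-culture 3, and alpha-amylase 3 is lower in every co-culture library.

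Alpha-amylases cut inside the chains. Alpha-amylase 3, the plastid form in Arabidopsis, summed over 2 unigenes to 35.5, 25.9 and 28.2 TMM-scaled FPKM in co-culture leaves, against 46.1 and 47.7 in plant alone leaves, a log2 ratio of -0.65. Every co-culture sum was below both plant alone sums. Unigene37076_zju had 23.9, 20.8 and 25.3 in co-culture leaves, against 29.7 and 36.7 in plant alone leaves, all lower, with a log2 fold change of -0.51 ± 0.27 (SE, edgeR adjusted p = 0.647) that stayed between -0.66 and -0.32 when any 1 library was left out. CL4363.Contig3_zju had 11.6, 5.06 and 2.94 in co-culture libraries and 16.4 and 11.02 in plant alone libraries and overlapped (-1.07 ± 0.64, SE, edgeR adjusted p = 0.677).

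The alpha-amylase with the highest level was isozyme 3D, CL6722.Contig2_zju, with 19.0, 40.3 and 86.0 TMM-scaled FPKM in co-culture and 34.1 and 67.2 in plant alone. Both the lowest and the highest value were in co-culture (log2 fold change -0.06 ± 0.71, SE), and the direction turned without co-culture 1 (0.36), co-culture 2 (0.11) or plant alone 3 (0.55). The 12 unigenes of alpha-amylase 2 summed to 45.3, 51.7 and 43.0 in co-culture and 47.4 and 33.1 in plant alone. Over the 15 alpha-amylase unigenes tested, 6 were higher and 9 lower, with a median of -0.07, and without co-culture 1 the median was 0.19.

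Isoamylase 3 and the glucanotransferase unigenes given here overlapped between the groups. Summed over 3 unigenes, the glucanotransferases had 19.2, 27.1 and 19.1 TMM-scaled FPKM in co-culture and 14.1 and 18.7 in plant alone. Every co-culture sum was above both plant alone sums, narrowly for co-culture 1 and 3 (log2 ratio 0.41). Isoamylase 3, which removes branches during degradation, had 2.70, 12.8 and 6.42 TMM-scaled FPKM in co-culture, compared with 5.55 and 3.87 in plant alone (0.63 ± 0.70, SE). Co-culture 1 was the lowest library and co-culture 2 the highest, and without co-culture 2 the fold change was 0.01. DPE2, the cytosolic glucanotransferase that uses exported maltose, had 7.72, 15.7 and 5.37 in co-culture leaves, against 6.18 and 2.93 in plant alone leaves (1.07 ± 0.62, SE, edgeR adjusted p = 0.667). Its fold change was 0.56 without co-culture 2, 1.71 without plant alone 2 and 0.65 when plant alone 3 was left out. The plastid glucanotransferase Unigene20864_zju had 11.4, 11.5 and 13.6 in co-culture libraries and 7.81 and 15.7 in plant alone libraries (0.05 ± 0.39, SE), and turned without plant alone 2 (-0.38) or co-culture 3 (-0.04).

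Glucan phosphorylases release glucose 1-phosphate. Their 6 unigenes summed to 27.7, 39.7 and 23.9 TMM-scaled FPKM in co-culture leaves, against 23.6 and 18.5 in plant alone leaves, with every co-culture sum above both plant alone sums, narrowly for co-culture 3. The log2 ratio was 0.53, and 5 of 6 unigenes were higher. The L isozyme, with 2 unigenes, lay outside the member words. It summed to 8.715, 4.823 and 1.617 in co-culture and 9.475 and 4.692 in plant alone, a log2 ratio of -0.49. The member described as starch phosphorylase, Unigene38210_zju, matched no class and is also outside the sums of the 6. It was highest in plant alone 3, at 5.96 CPM, and at 0.536 CPM or less in every other library. The separation thus covers these 6 unigenes only. The H isozyme Unigene2254_zju had 9.22, 20.1 and 4.28 in co-culture and 6.65 and 4.26 in plant alone (1.04 ± 0.72, SE, edgeR adjusted p = 0.716), and its fold change was 0.33 without co-culture 2. Unigene1818_zju, described as phosphorylase 2, cytosolic, was almost level, with 5.05, 5.25 and 5.10 in co-culture leaves, against 5.87 and 4.63 in plant alone leaves (-0.04 ± 0.38, SE). Its direction turned without plant alone 2 (0.14) or co-culture 1 (0.0083).

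The 3 members left in neither side carry names of starch-degrading enzymes but matched the words of no class, so the breakdown sum lacks them. They had hits outside land plants and were high in 1 library. Together they had 3.897, 1.625 and 4.264 TMM-scaled FPKM in co-culture and 0.5105 and 43.75 in plant alone. A glucoamylase with a Symbiodinium hit, Unigene28661_zju, had 1.84, 0.654 and 1.70 TMM-scaled FPKM in co-culture and 0.346 and 21.9 in plant alone. A starch phosphorylase with a Dunaliella hit, Unigene38210_zju, had 0.818, 0.202 and 1.09 in co-culture libraries and 0.107 and 12.2 in plant alone libraries. All co-culture values lay between the 2 plant alone values, and without plant alone 3 the log2 fold changes of -2.98 and -3.09 became 2.02 and 2.63. A second glucoamylase unigene had the same pattern.

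Summed by side, synthesis and breakdown differed in size and in direction. The 45 synthesis unigenes summed to 155.5, 215 and 128.2 TMM-scaled FPKM in co-culture, compared with 141.4 and 99.4 in plant alone, a log2 ratio of 0.47. Co-culture 3 lay between the plant alone libraries, so the ranges overlapped, and the log2 ratio was 0.25 without plant alone 3, 0.27 without co-culture 2 and 0.73 without plant alone 2. The 85 breakdown unigenes summed to 1517, 1468.5 and 821 in co-culture and 972 and 1877 in plant alone, a log2 ratio of -0.17, with the lowest library in co-culture and the highest in plant alone. That ratio was 0.07 without co-culture 3 and 0.40 without plant alone 3. Without the 7 unigenes described only as beta-amylase, the breakdown sums were 602, 735 and 563 in co-culture leaves, against 616 and 623 in plant alone leaves, and the log2 ratio was 0.03.

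Synthesis over breakdown, as log2 of the 2 sums, was -3.29, -2.77 and -2.68 in co-culture, compared with -2.78 and -4.24 in plant alone. Plant alone 3 stood apart, and plant alone 2 lay within the co-culture range. The means were -2.91 ± 0.33 (SD, n = 3) in co-culture and -3.51 ± 1.03 (SD, n = 2) in plant alone, a difference of 0.60 that is smaller than the plant alone SD. Leaving out plant alone 3 gave -0.13, and leaving out plant alone 2 gave 1.33. With the 7 beta-amylase unigenes left out, the values were -1.95, -1.77 and -2.14 in co-culture, compared with -2.12 and -2.65 in plant alone, a difference of 0.43, and the ranges still overlapped. The synthesis sum and all 3 leaf marker sums were highest in co-culture 2. The lowest library was plant alone 3 for synthesis and co-culture 3 for the markers. In such samples fewer cells of a type and less RNA per cell cannot be told apart.

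**Figure D4:**
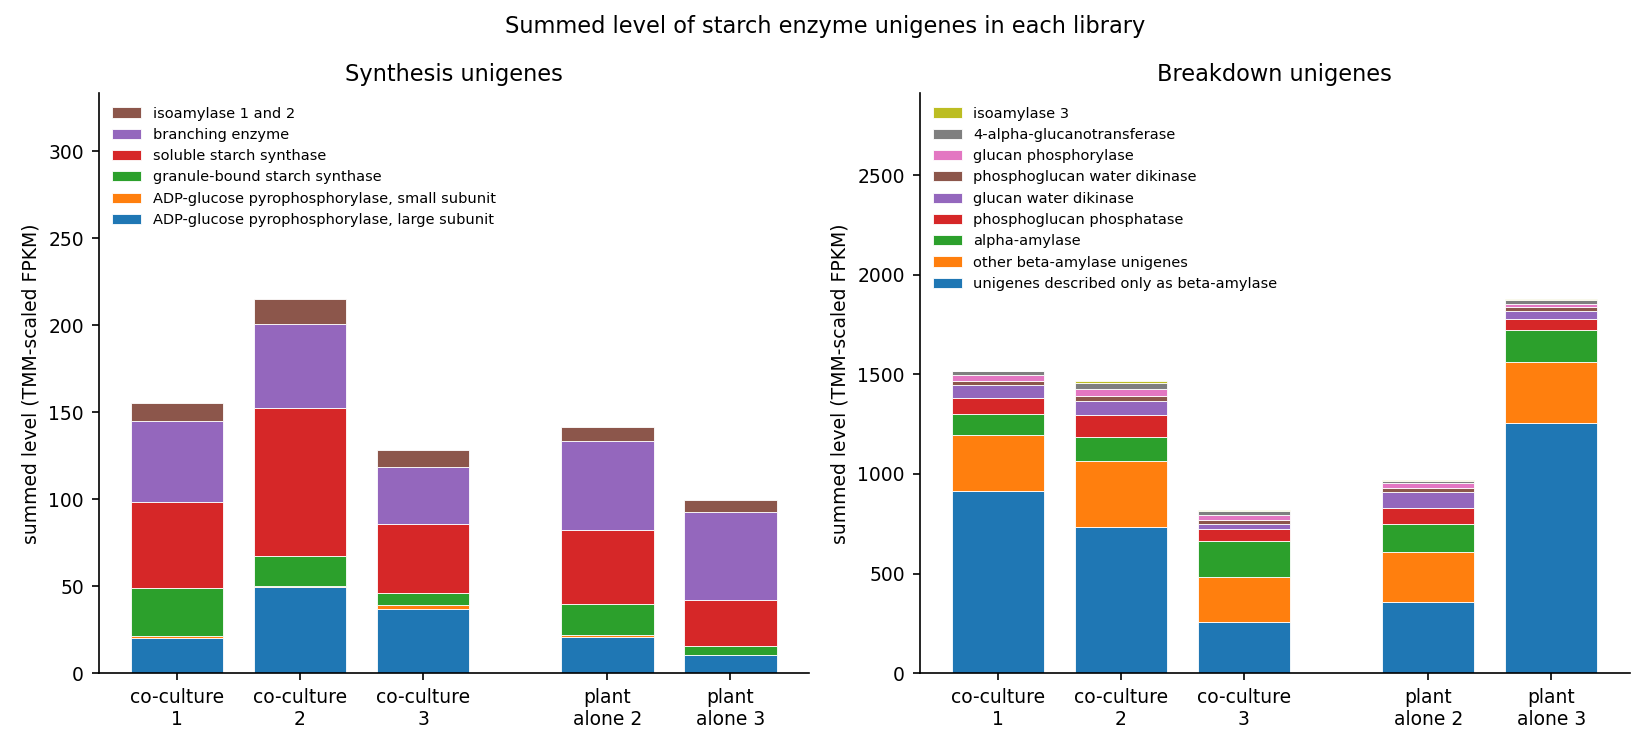
Summed level (y axis, TMM-scaled FPKM) of the 45 synthesis unigenes (left) and 85 breakdown unigenes (right) in each library, stacked by enzyme class, on different scales. The breakdown bars follow the unigenes described only as beta-amylase, while soluble synthases and pyrophosphorylase make up more of the synthesis bar in co-culture 2 and 3 than in either plant alone library.

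**Figure D5:**
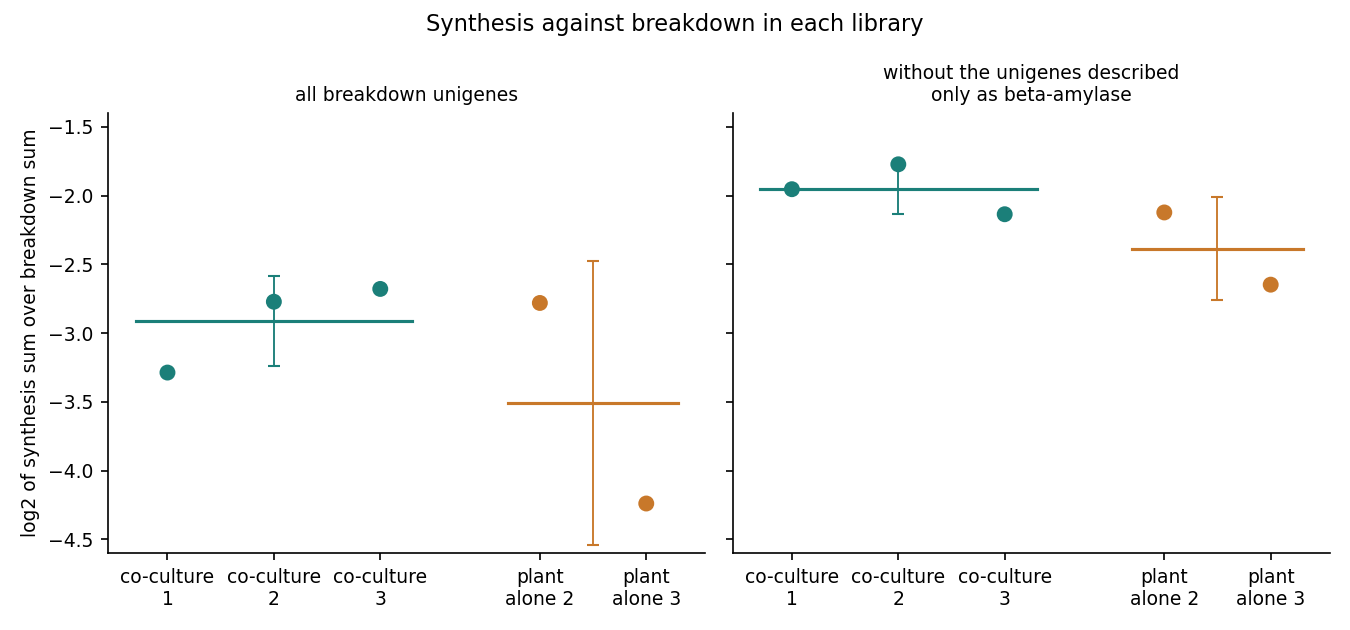
Log2 of the synthesis sum over the breakdown sum (y axis) in each library, with all breakdown unigenes (left) and without the 7 described only as beta-amylase (right). Points are libraries, lines means and whiskers SD (n = 3 and n = 2). Plant alone 3 lies lowest in both panels and plant alone 2 lies within the range of the co-culture points.

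The medians of the 2 sides lay closer when clusters were counted in place of contigs. The clusters are not the same set, since 12 of the 69 also held 24 unigenes that are not members, 6 on the synthesis and 18 on the breakdown side. Of the 67 starch clusters tested, 42 were higher and 25 lower. Among the 23 synthesis clusters 17 were higher (median log2 fold change 0.68), and among the 41 breakdown clusters 25 were higher (median 0.12), where 49.5% of all clusters were higher. At unadjusted p under 0.05 edgeR gave 2, both higher, starch synthase 3 (CL8681_zju) and isoamylase 1 (CL8331_zju), where 3.06% of all clusters were higher and 6.34% lower at that level. Neither edgeR nor DESeq2 called any starch cluster. The beta-amylase 1, large subunit and starch synthase 2-2 contigs called by DESeq2 thus had no called cluster.

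Other genes of starch and sugar metabolism, which supply or take up the products of these enzymes were counted in the same way. Of 90 such unigenes, 75 were tested, 43 higher (57.3%) and 32 lower in co-culture, with a median log2 fold change of 0.09, where 50.1% of all unigenes were higher. EdgeR called 0, with 3 higher and 3 lower at unadjusted p under 0.05 (2.75% and 4.45% of all unigenes), and DESeq2 called 1, where it called 1.25% of all unigenes higher, a contig of cytosolic phosphoglucomutase (CL12497.Contig1_zju, DESeq2 adjusted p = 0.00875). It had 2.43, 3.42 and 4.46 TMM-scaled FPKM in co-culture and 0.861 and 0.675 in plant alone, and a more abundant contig of its cluster, with 53.9, 57.8 and 48.9 in co-culture leaves, against 77.6 and 69.2 in plant alone leaves, differed in the other direction (-0.46 ± 0.26, SE, edgeR adjusted p = 0.667).

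Among these, sucrose synthase, which splits sucrose, had 8 of 9 unigenes higher, and the plastid glucose transporter had 8 of 10. The sums of both overlapped between the groups, with log2 ratios of 0.14 and 0.17. Hexokinases, which phosphorylate glucose, had 7 of 17 higher, and 5 of the 17 had every co-culture library below plant alone (29.4%, where all unigenes had 17.2%). Their sums were 184.2, 204.8 and 185.1 TMM-scaled FPKM in co-culture and 239.7 and 251.3 in plant alone. The glucose-6-phosphate/phosphate translocator summed to 66.7, 55.7 and 78.9 in co-culture and 86.1 and 147.9 in plant alone. In both classes every co-culture sum was lower, and in no class was every one higher. The triose phosphate translocator, which exports fixed carbon from the chloroplast, summed to 229, 412 and 84.8 in co-culture, compared with 232.5 and 186 in plant alone, with the highest and the lowest library both in co-culture.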

How the data were processed

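Leaf RNA of Iris tectorum was sequenced, and the submitters' processing notes name Bowtie2, RSEM and DESeq2 without versions. Per the file headers, the authors deposited, for each library, expected counts and FPKM for each assembled unigene with its length and protein description. The authors' deposited comparison table, labelled as made by the DEGseq method, gives pooled counts per group, a log2 ratio, a p-value and a q-value. Its plant alone counts summed to 59625013, against 37498927 in the 2 libraries here, and plant alone 1 was not analysed here. A second deposited table, on resistance genes, was not used.

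Expected counts were rounded, filtered with filterByExpr, scaled by TMM and tested with edgeR 4.0.16 (quasi-likelihood, Benjamini-Hochberg adjustment over all unigenes tested) in R 4.3.3. DESeq2 1.42.0 was an alternative. Levels are expected counts scaled to FPKM with the TMM effective library size. A fold against a group without reads was bounded with 3 counts over the group, which covers counting error only. Cluster sums added the counts of contigs that share a cluster name, members or not. Both tests were tried on simulated data in which 200 of 69984 unigenes changed. DESeq2 recovered 9% of 4-fold and 80% of 16-fold changes, with 89 false calls against 2 by edgeR.

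Named unigenes were first the 2 with the highest level in each of 14 classes and among the 3 members in no class. Added were the 5 with the smallest unadjusted p in each direction among tested members with a mean of at least 1 CPM, and each member called, 35 in all. The members and lists were chosen with earlier results of these data known. Other normalisations, no filter, a replicate block and leaving out each library were alternatives. Of the named ones, Unigene23782_zju (isoamylase 2), Unigene15194_zju (isoamylase 3) and Unigene46633_zju (DPE2) are given by enzyme name.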

Additional observations from a re-analysis of the deposited data

How the results depend on the processing

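EdgeR called 0 unigenes and 0 starch unigenes without each library in turn (lowest and highest 0), with DESeq2 size factors, library totals, no filter or cluster sums. DESeq2 called 1690 unigenes, 3 of them starch unigenes, and 865 cluster sums, 0 of them starch clusters. In the simulation DESeq2 made 89 false calls and edgeR 2 at the spread of these libraries, and 12 and 11 at a low spread. The cause of the difference in calls was not tested. Starch unigenes at unadjusted p under 0.05 numbered 7, between 6 and 13 without 1 library, 9 without the filter, 19 with DESeq2 and 2 as edgeR cluster sums. Under DESeq2 the median of all unigenes was 0.12 on the log2 scale. Without 1 library, the log2 ratio of the synthesis sums ranged over 0.25 to 0.73, that of the breakdown sums over -0.57 to 0.40 (0.07 without co-culture 3), and the difference in balance over -0.13 to 1.33. Without the unigenes described only as beta-amylase, a set chosen after seeing the data, the breakdown ratio was 0.0321. With the pyrophosphorylase unigenes of the KEGG term added, also chosen after seeing the data, the synthesis ratio was 0.56 and the balance 0.70. Of 33 named unigenes tested, 9 turned direction without plant alone 3 and at most 4 without any other library.

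The replicate numbers were not taken as pairs: same-numbered libraries of the 2 groups deviated together with r = 0.0663 across unigenes, over 2 pairs. With the replicate block edgeR called 0 unigenes and 0 starch unigenes, 9 starch unigenes had an unadjusted p under 0.05, and the median log2 fold change was 0.77 for synthesis and -0.0302 for breakdown, where all unigenes had -0.09.

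With 2 plant alone libraries, leaving 1 out assumes that the lone sample varies like co-culture. At this spread 5% of simulated 4-fold changes passed edgeR's adjusted p and 58% its unadjusted p. Smaller changes, and changes in unigenes with a mean of 5 CPM or less, were not simulated.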
